A study of Mus musculus with 2 samples.

Results

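The 9 genes described here encode the beta chains of the activins and inhibins (Inhba and Inhbb), the follistatin family (Fst, Fstl3 and Fstl1) and receptors that activins bind or share (Acvr1, Acvr1b, Acvr2a and Acvr2b). They were taken by name, and every probe set that the platform annotation gives to exactly 1 of them was used, which came to 19 probe sets of 34945 with a single gene. All 9 genes, of 18193 named on the array, had at least 1 such probe set, and 1 further probe set, shared between Orc4 and Acvr2a, was left out. The list was chosen by its difference between these arrays, that is, with the PP1 and DMSO signals already known, so its values are a description and no test was made on them. The cells were primary osteoblasts, the bone-forming cells, grown out of the skull vault of CD1 mice aged 7 days. All cultures were kept without serum for 24 h in medium with 0.25% bovine serum albumin. The PP1 culture then received 2 µM PP1, an inhibitor of c-Src and related tyrosine kinases, for 24 h, and the DMSO culture received the vehicle for 24 h. There was 1 array for PP1 and 1 for DMSO, so no spread between cultures is known and no p-value could be given.

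Activin A is a dimer of the beta A chain encoded by Inhba, and activin B a dimer of the beta B chain encoded by Inhbb, while an inhibin pairs a beta chain with the alpha chain encoded by Inha. Activins bind the type II receptors ActRIIA (Acvr2a) and ActRIIB (Acvr2b), which recruit and phosphorylate the type I receptor ALK4 (Acvr1b), and the signal passes through SMAD2 and SMAD3. Follistatin (Fst) and the follistatin-like protein FSTL3 wrap around activin and keep it from its receptors. In bone, activin A is stored in the matrix and acts on both osteoblasts and osteoclasts. The receptor ALK2 (Acvr1) mainly carries bone morphogenetic protein (BMP) signals, and activating changes in its human counterpart cause the ectopic bone of fibrodysplasia ossificans progressiva.

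Inhba was the only member that differed by 2-fold or more, being 3.69-fold lower with PP1. Fstl3 was 1.68-fold lower and Acvr1 1.67-fold lower by its brightest probe set, and 5 of the other 6 members lay within 1.5-fold by theirs. Acvr2b has only a lower bound, since its DMSO signal was under the floor described below. The count of 1 member at least 2-fold lower stands beside 1.55% of all 12111 measured genes, and the count of 3 members at least 1.5-fold lower beside 7.37%. By its brightest probe set no member was called 2-fold or 1.5-fold higher, where 2.97% and 10.6% of all genes were. For Acvr2b the bound does not settle this, and the dimmer probe set of Inhbb was 1.63-fold higher. The median log2 ratio of the 9 members was -0.12, beside 0.01 over all measured genes, and 8 of the 9 were below 0, beside 49.0% of all genes. That count rests on the brightest probe sets: it was 5 of 9 with the median over probe sets and 4 of 9 with the dimmest probe set above the floor. For these values the PP1 array was multiplied by 1.68, which gave both arrays the same trimmed mean. Signals under a floor of 31.7, the median of all probe sets on both arrays, were raised to it, and each gene was read from its brightest probe set. As deposited, without that scaling, the median of all genes was shifted by -0.71 on the log2 scale, so every direction given here is relative to the bulk of genes.

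The windows just upstream of the 3 genes that were at least 1.5-fold lower are shown because these are the members with a difference of that size by their brightest probe set. Each holds the 250 bases before the RefSeq transcription start in the mouse build GRCm38.p6, written 5′ to 3′ on the strand of the gene. The Inhba window lies at chr13:16011601-16011850 (plus strand), the Fstl3 window at chr10:79777024-79777273 (plus strand) and the Acvr1 window at chr2:58566829-58567078 (minus strand). Capitals mark a match to the TATA box TATAAA on either strand.
Inhba: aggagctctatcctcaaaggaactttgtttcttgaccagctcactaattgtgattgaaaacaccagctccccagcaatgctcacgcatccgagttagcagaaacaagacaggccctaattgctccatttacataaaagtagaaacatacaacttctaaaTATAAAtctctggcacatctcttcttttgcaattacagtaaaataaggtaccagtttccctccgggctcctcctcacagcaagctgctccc
Fstl3: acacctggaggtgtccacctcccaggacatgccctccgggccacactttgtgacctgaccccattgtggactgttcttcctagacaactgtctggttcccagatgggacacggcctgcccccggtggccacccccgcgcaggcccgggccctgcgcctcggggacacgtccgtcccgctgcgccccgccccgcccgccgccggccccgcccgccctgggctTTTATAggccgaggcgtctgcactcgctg
Acvr1: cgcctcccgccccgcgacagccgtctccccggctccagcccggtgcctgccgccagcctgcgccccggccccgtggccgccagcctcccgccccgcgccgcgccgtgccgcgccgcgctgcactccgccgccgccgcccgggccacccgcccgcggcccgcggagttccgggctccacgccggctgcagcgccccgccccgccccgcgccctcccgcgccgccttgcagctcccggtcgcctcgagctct
The match lies at positions -91 to -86 from the start in Inhba, and in Fstl3 it lies at -29 to -24 on the opposite strand, where it reads TTTATA. Matches to TATAAA were present in 12.4% of all 32851 upstream windows in the table. A window was found for 8 of the 9 members, Fst not being among them, and the other 6 windows held no match to it. None of the 8 windows held the AP-1 site TGANTCA (in 6.75% of all windows), the cyclic AMP element TGACGTCA (1.55%), the SMAD element GTCTAGAC (0.167%), the TEAD site GGAATG (12.6%) or a CArG box (1.47%), with both strands searched and no overlapping matches. The windows differed in base composition, with 43.2% G and C in Inhba, 71.2% in Fstl3 and 85.6% in Acvr1, against a median of 52.4% over all windows. No reading on binding or promoter activity exists in these arrays, so the matches are a description of the letters.

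Among the ligand genes, Inhba had a scaled signal of 275.7 on the PP1 array and 1018 on the DMSO array from probe set 1422053_at. That is a log2 ratio of -1.88, from a DMSO signal that stood 32.1 times above the floor. It was rank 21 from the lowest of 12111 measured genes, and the ratio lay well beyond the central 95% of the 1211 genes nearest in mean signal (all measured genes cut into 10 equal bins), which ran from -0.91 to 0.89. The other Inhba probe set, 1458291_at, was under the floor on both arrays, at 2.15 with PP1 and 4.11 with DMSO, and carries no usable ratio. The value for activin A thus rests on 1 probe set, and as deposited that probe set read 164.1 with PP1 and 1018 with DMSO.

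Inhbb, the activin B chain, gave opposite directions by its 2 probe sets. The brighter, 1426858_at, had a signal of 633.0 with PP1 and 918.8 with DMSO, a log2 ratio of -0.54. The dimmer, 1426859_at, had 214.2 with PP1 and 131.7 with DMSO, a log2 ratio of 0.70. The gap of 1.24 between them was matched or exceeded by 7.29% of the 4745 genes with more than 1 bright enough probe set, whose median gap was 0.49. The direction for Inhbb thus differs by probe set. The log2 ratio of Inhba lay -1.35 from that of the brighter Inhbb probe set.

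**Figure D1:**
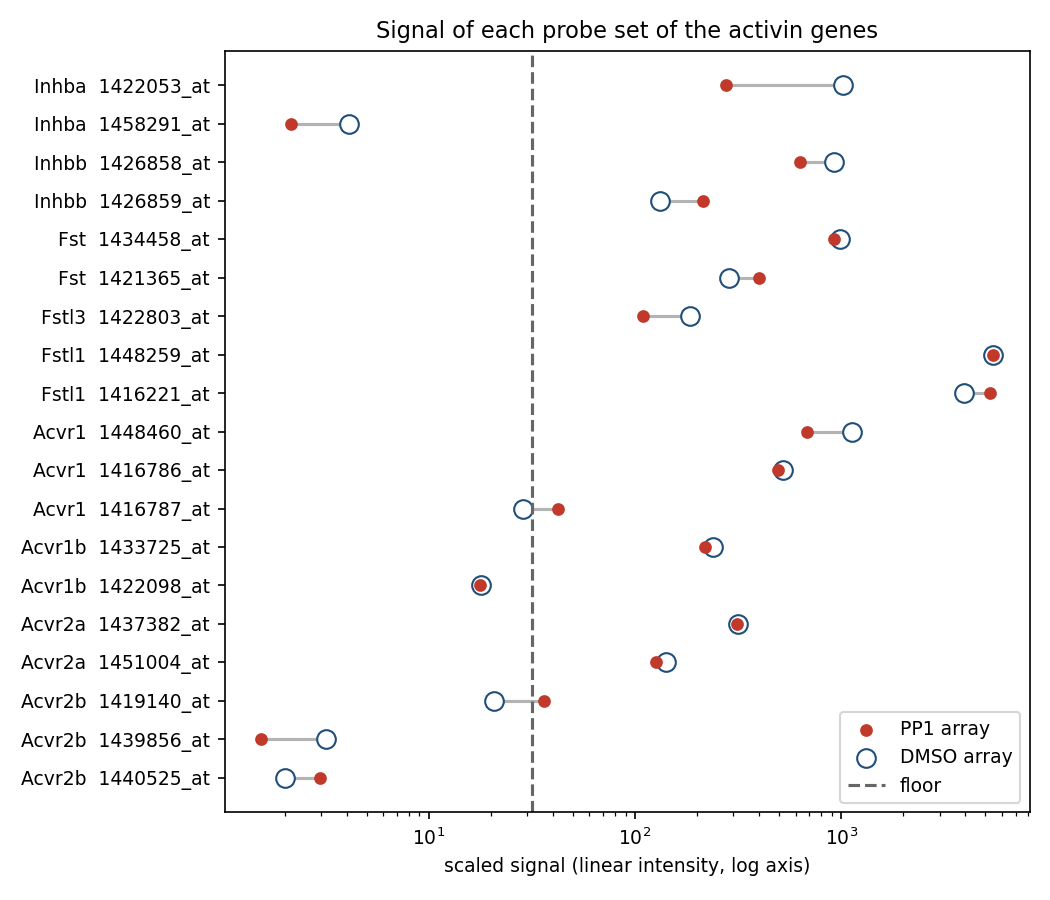
Scaled signal of all 19 probe sets on a log axis, with filled points for the PP1 array, open points for the DMSO array and a dashed line for the floor of 31.7. The widest gap among probe sets above the floor is that of Inhba 1422053_at (275.7 with PP1, 1018 with DMSO), and 4 probe sets lie under the floor on both arrays.

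The antagonists did not move as a group. Fstl3, which is made in many tissues and binds activin and myostatin, had a signal of 109.7 with PP1 and 184.5 with DMSO from its only probe set, a log2 ratio of -0.75. It lay inside the central 95% of genes of like signal, from -0.99 to 1.10. Follistatin itself (Fst) stayed close to the bulk of genes by its brighter probe set 1434458_at, with 921.4 with PP1 and 988 with DMSO, a log2 ratio of -0.10. Its other probe set, 1421365_at, had 399.0 with PP1 and 286.2 with DMSO, a log2 ratio of 0.48, so the 2 probe sets went opposite ways.

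Fstl1 is a secreted glycoprotein that shares the follistatin domain but is not known as a strong activin trap. Its probe set 1448259_at had 5410 with PP1 and 5448 with DMSO, a log2 ratio of -0.01. The other, 1416221_at, had 5271 with PP1 and 3956 with DMSO, a log2 ratio of 0.41. Neither reached 1.5-fold. The log2 ratio of Inhba lay -1.78 from that of Fst, -1.13 from that of Fstl3 and -1.87 from that of Fstl1, each by the brightest probe sets. Whether such gaps exceed the variation between cultures is unknown with 1 array per group.

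Of the receptors, Acvr1 varied most between its probe sets. The brightest, 1448460_at, had a signal of 679.5 with PP1 and 1132 with DMSO, a log2 ratio of -0.74. The second, 1416786_at, had 491.4 with PP1 and 521.8 with DMSO, a log2 ratio of -0.09. The third, 1416787_at, was above the floor only with PP1, at 42.5 against 28.5 with DMSO, so its log2 ratio of 0.42 is a lower bound. All 3 are assigned to the same reference transcript, and only the brightest gave a difference of 1.5-fold.

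The type II receptor ActRIIA and the type I receptor ALK4 were within 1.5-fold by every probe set above the floor. ActRIIA (Acvr2a) had 313.0 with PP1 and 316.3 with DMSO by probe set 1437382_at, a log2 ratio of -0.02. Its other probe set, 1451004_at, had 126.5 with PP1 and 141.7 with DMSO, a log2 ratio of -0.16. Of the 5 members with more than 1 probe set above the floor, only Acvr2a had every one on a single side of 0, beside 48.8% of all 5488 genes of that kind. ALK4 (Acvr1b) had 218.3 with PP1 and 237.9 with DMSO by 1433725_at, a log2 ratio of -0.12, and its other probe set was under the floor on both arrays. ActRIIB (Acvr2b) was barely measured: 1419140_at had 36.1 with PP1 and 20.7 with DMSO, so its 0.19 is a lower bound (0.80 without the floor), and its other 2 probe sets were under the floor on both arrays. Over the list, 13 of the 19 probe sets exceeded the floor with PP1 and with DMSO, and 2 with PP1 alone. Signals of different probe sets are not on a common scale, so the members are not ranked by level.

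**Figure D2:**
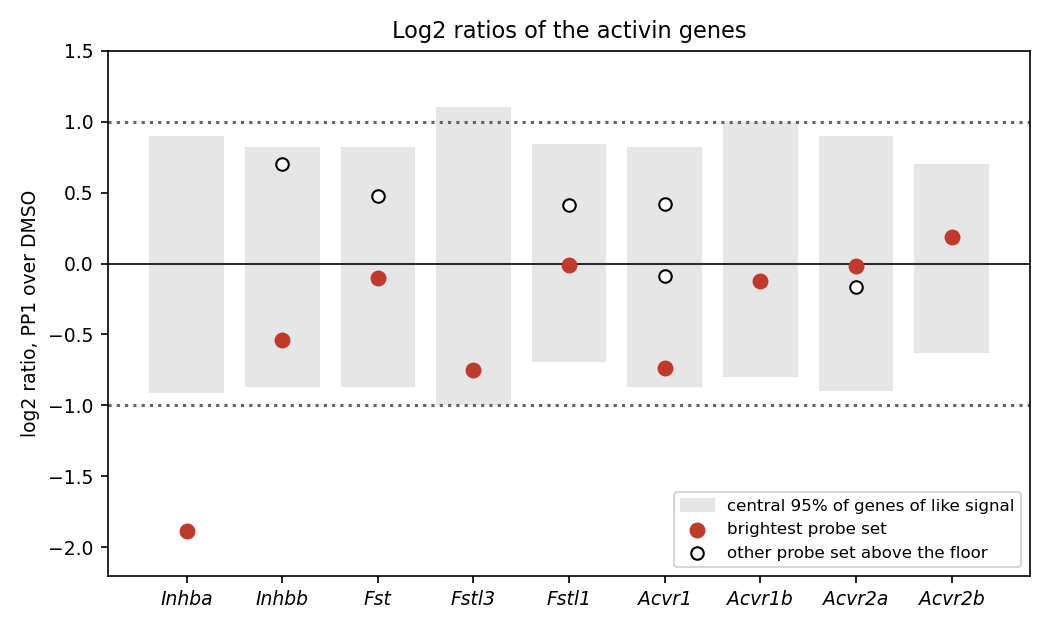
Log2 ratio of PP1 over DMSO for each probe set above the floor, with the brightest probe set of each gene filled, the others open, dotted lines at 2-fold and grey boxes for the central 95% of genes in the same bin of mean signal. Inhba at -1.88 is the only filled point outside its box, and Inhbb, Fst, Fstl1 and Acvr1 have an open point above 0 and a filled point below it.

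**Figure D3:**
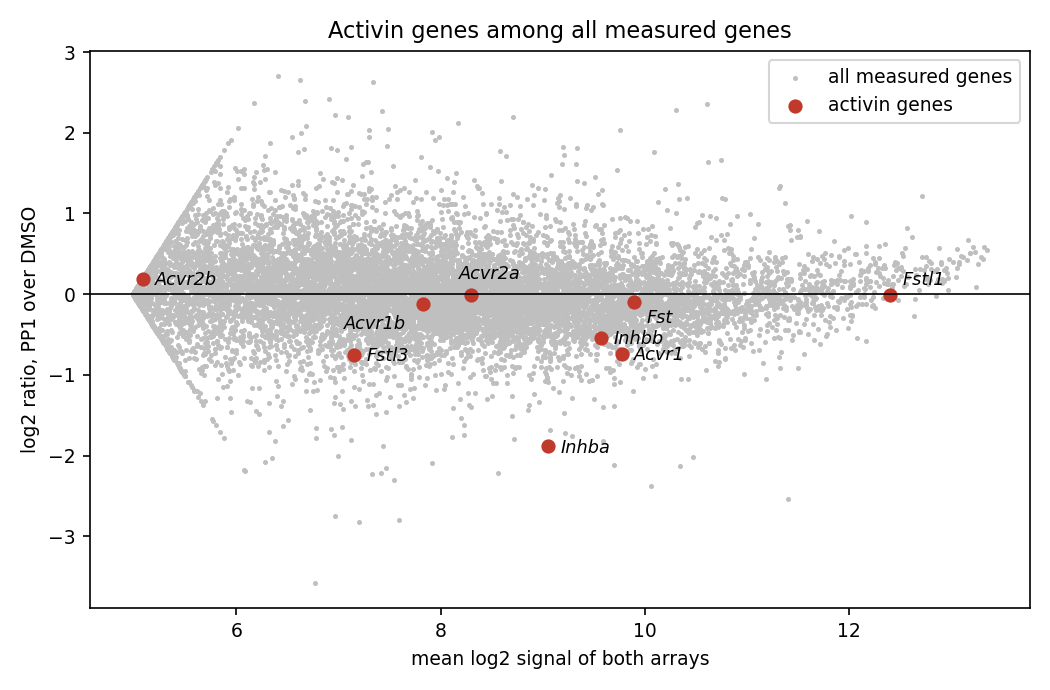
Log2 ratio of PP1 over DMSO against the mean log2 signal of both arrays for all 12111 measured genes (grey) and the 9 members (filled). Inhba lies apart from the band of genes of like signal, while the other 8 members lie within it.

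Genes with a log2 ratio most like that of Inhba were sought among 2172 genes that reached 4 times the floor and had 2 or more probe sets above it, all on the same side of 0. The likeness is the gap in log2 ratio over these 2 arrays, which many genes can share. The nearest was Hbegf, a ligand of the EGF receptor, with 90.3 with PP1 and 331.5 with DMSO, a log2 ratio of -1.88. Its other probe set gave -1.15. Heyl, a repressor downstream of Notch, had 44.2 with PP1 and 156.6 with DMSO, a log2 ratio of -1.82. The stress-induced chromatin protein gene Nupr1 had 408.9 with PP1 and 1446 with DMSO, a log2 ratio of -1.82. Rflnb, a regulator of filamin, had 74.6 with PP1 and 260.0 with DMSO, a log2 ratio of -1.80, but its 3 probe sets ran from -1.80 to -0.03.

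Genes that activin A is known to raise through SMAD2 and SMAD3 were lower with PP1 in most cases. Of 9 measured genes, 2 were at least 2-fold lower, beside 1.55% of all genes, and 5 at least 1.5-fold lower, beside 7.37%. None was higher by either measure. The median log2 ratio was -0.70, beside 0.01 over all measured genes. The list holds 3 members (Fst, Fstl3 and Inhbb), and without them 4 of 6 genes were at least 1.5-fold lower, with a median of -0.74. Other ligands of the TGF-beta family raise the same genes, so the list is not particular to activin. Pmepa1, which holds back SMAD activation, had 467.6 with PP1 and 2435 with DMSO, a log2 ratio of -2.38, with its 3 probe sets from -2.79 to -2.17. Skil, a SMAD corepressor, had 175.6 with PP1 and 815.6 with DMSO, a log2 ratio of -2.22 from 1 probe set. The corepressor Tgif1 stood at -0.79, and Fstl3 at -0.75 as given above.

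The SMADs and their partners held the same lowest genes, Pmepa1, Skil and Tgif1, followed by the inhibitory Smad7 at -0.70, whose other probe set gave -1.39. Of 15 measured genes, 2 were at least 2-fold lower (1.55% of all genes), 5 at least 1.5-fold lower (7.37%) and none higher, with a median of -0.28. These counts are not separate from those of the genes that activin A raises, since both lists hold Pmepa1, Skil, Tgif1 and Smad7. They also rest on the brightest probe sets. Other probe sets reached 1.01 for Smad1, 0.85 for Smad3 and 0.64 for Smad2, while those of Smad7 and Ski stayed below 0. In the other receptors of the family, 2 of 6 measured genes were at least 1.5-fold lower, beside 7.37% of all genes, and the median was -0.20. These were the BMP receptor Bmpr1b, at -0.90 as a bound because it was under the floor with PP1 (17.7, against 59.3 with DMSO), and the TGF-beta receptor Tgfbr1 at -0.59. Bmpr2 stood at -0.34 and Bmpr1a at -0.06, the 5 probe sets of the last running from -0.06 to 0.94. Tgfbr2 stood at 0.03 by its brightest probe set and at 1.21 by its other.

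Of the other ligands, chains and antagonists, 7 of 21 were measured. Of these, 1 was at least 2-fold higher, beside 2.97% of all genes, and 2 at least 1.5-fold higher, beside 10.6%. None was lower by either measure. Each of the other 5 was within 1.5-fold, 1 of them with only a bound. All 7 were above 0, beside 51.0% of all genes, with a median of 0.28. Betaglycan (Tgfbr3), a co-receptor that lets inhibin block activin receptors, had 1715 with PP1 and 829.0 with DMSO, a log2 ratio of 1.05, and its other probe set gave 2.20. The decoy receptor Bambi had 116.9 with PP1 and 66.6 with DMSO, a log2 ratio of 0.81. The BMP antagonists Chrd and Grem1 stood at 0.54 and 0.28. The inhibin alpha chain Inha, named for its role after its value was seen, had 76.6 with PP1 and 66.1 with DMSO, a log2 ratio of 0.21. Apart from Tgfbr3, these genes were dim.

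Other proteins with follistatin domains were split evenly around 0, with a median of -0.11 over 8 measured genes. Of these, 1 was at least 2-fold higher, beside 2.97% of all genes, and 1 at least 1.5-fold lower, beside 7.37%. The matrix protein gene Sparcl1 had 337.2 with PP1 and 94.3 with DMSO, a log2 ratio of 1.84. Tmeff2 stood at -0.60, Smoc1 at -0.40 and Sparc (osteonectin) at 0.44, the 3 probe sets of Sparc running from -0.18 to 0.82. Of the proteases that cut proproteins of this family, 1 of 6 was at least 1.5-fold higher, beside 10.6% of all genes, and none lower. Their median was -0.20. Pcsk6 stood at 0.69 and Furin, which releases mature activin, at -0.30. Bmp1 stood at -0.25 and Pcsk5 at -0.24, the other probe set of Bmp1 giving 0.39.

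**Figure D4:**
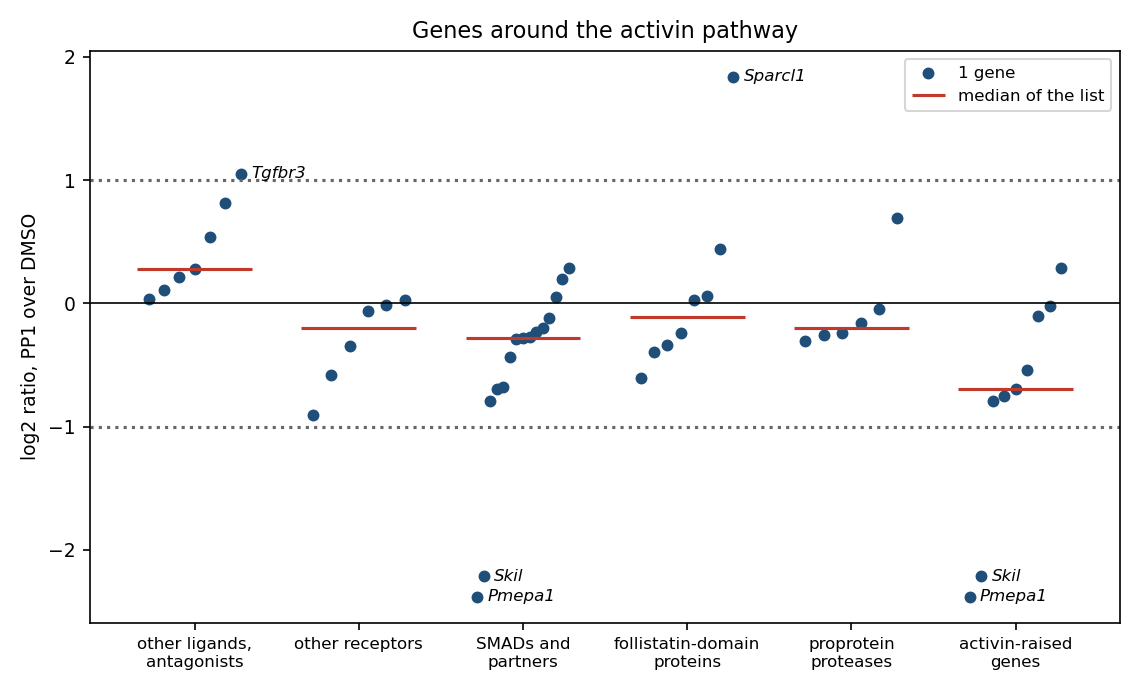
Log2 ratio of PP1 over DMSO for each measured gene of 6 lists around the activin pathway, with a line at the median of each list and dotted lines at 2-fold. The activin-raised genes have the lowest median (-0.70) and the other ligands and antagonists the highest (0.28), and Pmepa1 and Skil appear in both lists that hold them.

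The cultures carried osteoblast markers, with 7 of 12 measured. Among them were Col1a2 (11166 with PP1 and 7809 with DMSO) and Sparc (11867 with PP1 and 8747 with DMSO). Of the 7, 1 was at least 2-fold lower, beside 1.55% of all genes, and none 2-fold higher, beside 2.97%. The gene at least 2-fold lower was Ibsp (bone sialoprotein), at 4.22-fold, with a signal of 37.7 with PP1 and 159.1 with DMSO, a log2 ratio of -2.08. Phex and Dmp1 were not above the floor. Runx2, Bglap and Spp1 had no single-gene probe set under those names here, so they could not be read. Macrophage markers were present on both arrays, with all 10 measured and a summed signal of 16514 with PP1 and 13953 with DMSO. They went both ways, with 6 above 0 and 4 below. Of the 10, 1 was at least 2-fold higher (Mrc1, 1.11), beside 2.97% of all genes, and none 2-fold lower. The lowest was C1qb at -0.76, its 3 probe sets running from -1.16 to -0.17. Smooth muscle and pericyte markers were lower along with Inhba. All 5 measured genes of 6 were below 0, beside 49.0% of all genes, and 3 were at least 2-fold lower, beside 1.55%. Their summed signal was 6243 with PP1 and 8221 with DMSO, Myh11 not being above the floor. Cspg4 stood at -1.74 (-0.68 by its other probe set) and Actg2 at -1.54. Cnn1 stood at -1.37, a bound because it was under the floor with PP1. Acta2 stood at -0.27 and Rgs5 at -0.11. Of 5 measured fibroblast markers, 4 were above 0 (51.0% of all genes) and 2 at least 2-fold higher (2.97%). The summed signal of the 5 was 7103 with PP1 and 3565 with DMSO. Thy1 stood at -0.30 (936.5 with PP1 and 1155 with DMSO). Endothelial markers were close to the floor, with a summed signal of 131.2 with PP1 and 90.2 with DMSO over 3 measured genes, and Pecam1 and Emcn not above it. In the skeletal muscle list 2 of 5 genes were higher by 2-fold or more, beside 2.97% of all genes. Of these, Myog is only a bound, since it was under the floor with DMSO (23.7, against 81.8 with PP1). Des was near the floor with DMSO (39.4, against 105.9 with PP1). The brighter Acta1 and Myh3 stood at -0.29 and 0.32. In the cartilage list 1 of 3 was at least 2-fold lower, beside 1.55% of all genes. In the osteoclast and adipocyte lists none of 3 each differed by that much. The part of these cells in the Inhba difference was not tested, and in such bulk samples fewer cells of a type and less RNA per cell cannot be told apart. The 3′ to 5′ control ratio differed between PP1 and DMSO by -0.51 on the log2 scale for Gapdh, -0.34 for Pcx and 0.14 for Actb, and its part was not tested either.

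Inhba was over 2-fold lower under each of the 4 other scalings, with log2 ratios from -2.06 to -1.83. For 2 of these, the values as deposited and the hybridization controls, the arrays differ from the main scaling by 1 factor. The shift of the median of all genes was then taken out, so their -1.92 each is close to the main value by construction. Without that step the deposited ratio of Inhba was -2.63. The other 5 alternatives, which change the floor or the probe set, return the same -1.88, because Inhba has a single probe set above the floor and it is bright on both arrays, so the choice of probe set was not tested for it. Fstl3, also read from 1 probe set, ranged from -0.93 to -0.20, the last under a floor at the 75th percentile, where the PP1 signal is only a bound. Inhbb ran from -0.71 to 0.70 and Acvr1 from -0.91 to 0.42, each changing sides with the choice of probe set. Fst ran from -0.28 to 0.48 and Fstl1 from -0.19 to 0.41, likewise on both sides of 0. For the values as deposited and for those scaled to hybridization controls, these ranges are relative to the median of all genes.

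**Figure D5:**
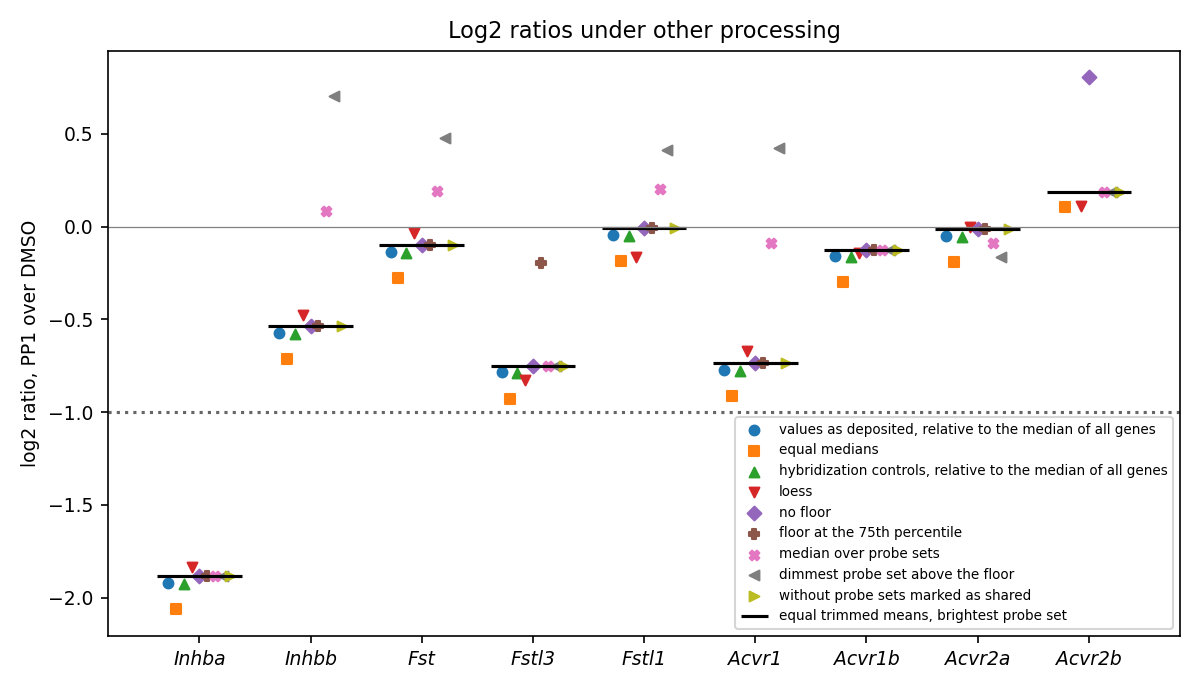
Log2 ratio of PP1 over DMSO for each member under the main processing (black line) and under 9 alternatives (symbols), with a dotted line at 2-fold lower. The symbols of Inhba lie between -2.06 and -1.83, 5 of them on the black line because they read the same probe set, while Inhbb, Fst, Fstl1 and Acvr1 have symbols on both sides of 0, those of the dimmest probe set being the highest.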

How the data were processed

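Biotinylated cRNA from total RNA was hybridised to 2 Affymetrix mouse arrays, 1 per culture, per the labels' protocols. The deposited values are a linear intensity per probe set, made with MAS5 per the submitters' processing notes; for its version, target scaling and the genome build, the entry is "not given in the sources used here". Of 45037 non-control probe sets, 34945 have 1 gene, 932 several and 9160 none here; symbols were updated through a RefSeq table of GRCm38.p6, which matched 34741.

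The arrays were scaled to equal means after trimming 2% at each end (94.1 for PP1 and 158.1 for DMSO as deposited), floored and log2-transformed. Each gene was read from its brightest probe set (by mean log2 signal) and counted as measured if that exceeded the floor with PP1, with DMSO or with both. The SD of 0.41 between probe sets of a gene (4745 genes) was the yardstick for shifts of a log2 ratio between processing settings. It measures how far probe sets disagree on the same arrays. It is not a replicate error and does not cover variation between cultures. Thresholds were 2-fold and 1.5-fold. The members and lists were chosen with earlier results of these data known. Named genes are all members, up to 4 genes per pathway list by size of log2 ratio, the 4 nearest to Inhba, and up to 2 markers per list by size and 2 by signal. Steps were tested on simulated data. With 1 array per group, their number limits the precision. Python 3.11.15, numpy 2.4.6, pandas 2.3.3 and statsmodels 0.14.6 were used.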

Additional observations from a re-analysis of the deposited data

How the results depend on the processing

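No paired analysis was possible because each group is 1 array and no result comes from a test. The number of members at least 2-fold lower was 4 as deposited and 4 when scaled to the hybridization controls (Inhba, Inhbb, Fstl3 and Acvr1 as deposited), where 2877 and 3774 of all genes were at least 2-fold lower and 50 and 35 higher, the median of all genes having shifted by -0.71 and -0.80. Relative to that median, a setting chosen after seeing the data, the number of members was again 1. Over all genes, equal medians gave 351 lower and 223 higher, no floor 1522 lower and 2064 higher, and a floor at the 75th percentile 84 lower and 111 higher, against 188 and 360. The dimmest probe set above the floor gave 604 higher. A threshold of 1.5-fold gave 3 members and 893 genes lower and 1282 higher, and 3-fold gave 42 lower and 60 higher. The log2 ratio of Acvr2b was 0.80 with no floor, and that of Fstl3 was -0.20 with the floor at percentile 75. Taking the median of a gene's probe sets gave 0.082 for Inhbb and -0.087 for Acvr1, and the dimmest probe set gave 0.70 for Inhbb, 0.48 for Fst, 0.41 for Fstl1 and 0.42 for Acvr1, as these take other probe sets of the gene. Acvr2b was not measured under 3 of the 9 alternatives, as deposited, with hybridization controls and with the higher floor. Of 130 values, 104 moved by less than the SD between probe sets or, for counts, by less than 1.5 times. Many of these could not move. With no floor, or without probe sets marked as shared, most member ratios came from the same probe set with the same signals. Dim signals limit Acvr2b most. Where not stated, the cause was not tested.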
